A study of Bos taurus with 10 samples.

Results

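Complement genes were followed in bovine mammary tissue lying away from an E. coli infection. A list of 30 complement components, regulators and receptors was matched to the array by gene symbol, and every probe set whose only symbol was a listed gene was taken, with BF and IF accepted as older names of CFB and CFI. With control probe sets set aside, this gave 38 of 24016 probe sets, standing for 27 genes. CD59, C3AR1 and C5AR1 had no probe set with their symbol alone and were not analysed here. Of the 38 probe sets, 26 (21 genes) passed the filter on low values described below, and 12 did not.

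Complement is a cascade of proteins that marks and kills microbes. The classical route starts when C1q binds antibody or a microbial surface and activates the proteases C1r and C1s, the lectin route when lectins activate the MASP proteases, and both cleave C4 and C2. The alternative route runs on factor B, factor D and properdin, and all routes meet at C3, whose cleavage leads to C5 and to the membrane attack complex of C5b, C6, C7, C8 and C9. Host cells are protected by soluble regulators (C4b-binding protein, factor I, C1 inhibitor, clusterin) and by membrane regulators (CD46, CD55, CD59). Most circulating complement proteins come from the liver, while epithelial cells, fibroblasts, macrophages and adipocytes make some of them locally.

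All 10 cows were healthy, primiparous German Holstein Frisian animals in mid lactation, with oestrus synchronized by cloprostenol and the udder milked out under oxytocin. In 5 cows another gland of the udder had received 500 CFU of E. coli strain 1303, a mastitis isolate, in 2 ml of saline, and tissue was taken after 24 h from glands that had received no bacteria (neighboring). The other 5 cows were not inoculated (healthy). There was 1 array per cow. The study's methods describe neighboring samples as pools of a saline-treated and an untreated gland, except neighboring 4, which was a single untreated gland. Healthy samples were also described as pools of glands, but the study's sample list gives a single gland for healthy 3 and healthy 5.

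Following those methods, 8 arrays entered the fit, 4 per group: neighboring 5 was left out as a biological outlier and healthy 3 as a technical one. Their values are given beside part of the results. Values are log2 RMA values per probe set, and a difference is neighboring minus healthy on that scale. The words rose and fell are kept for an adjusted p below 0.05 by limma, with the adjustment made across the 14409 probe sets that passed the filter. The filter dropped the dimmest 40%, whose mean across the 10 arrays was below 5.71. Array medians lay between 6.25 and 6.27. The milk protein genes of secretory epithelium were present in both groups, with CSN2 (beta-casein) at 14.77 and 14.68 and LALBA (alpha-lactalbumin) at 14.28 and 14.38 in the neighboring and healthy means. The added bacterial hybridization controls averaged 10.20 to 10.43 on the neighboring arrays of the fit and 10.42 to 10.84 on the healthy ones. Among the arrays of the fit the groups met in this average only at neighboring 4 (10.43) and healthy 4 (10.42). Outside the fit, neighboring 5 averaged 10.65, within the healthy range, and healthy 3 averaged 10.64. With this average as a covariate C6 was the one member called, and 1.74% of all probe sets were called. Since the average nearly separated the groups among the 8 arrays of the fit, that fit cannot tell differences in hybridization and differences between the groups apart. In whole tissue, fewer cells of a type and less RNA per cell cannot be told apart.

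Neighboring glands had more transcript of the terminal component C6 and of the soluble regulators CLU, CFI and C4BPA than healthy glands, and more of the alternative route's factor B (CFB). CFD, the gene of factor D, was the one member that fell. C1 inhibitor (SERPING1), C1S, C1R and 1 of 2 probe sets of C2 rose by less than 2-fold. In all, 10 of the 26 member probe sets rose and 1 fell, which is 38.5% and 3.85% of them, where 17.7% of all 14409 probe sets rose and 12% fell. Their median difference was 0.41, against 0.03 over all kept probe sets. When a change beyond 2-fold and an adjusted p below 0.01 were required, C6, CLU, CFI and C4BPA rose and CFD fell, 15.4% of the members being higher against a background of 1.71% (1.05% for lower). Without regard to any test, all 4 neighboring arrays lay above all 4 healthy ones in 10 of the 26 (background 18.4%) and below them in 1 (background 13.3%).

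Passing the filter was not independent of the groups, since the healthy means of C6, C4BPA, CFI and CD55 lay under its limit. Without a filter all 38 member probe sets were tested: 9 rose (23.7%) and 1 fell, with 11.1% and 9.21% of all 24016 probe sets as background. The median difference of the 38 was then 0.21, against −0.04 over all probe sets, and C1R no longer passed (adjusted p = 0.0593). By the stricter rule 4 of the 38 were then higher (10.5%, background 1.15%) and 0 lower (background 0.725%), CFD having an adjusted p of 0.0112. Whether C6, CFI and C4BPA were above background in healthy glands was not tested, since detection calls were not used here, and if they were not, their folds are lower bounds. On all 10 arrays 9 of the 26 rose (34.6%, background 7.16%) and 0 fell (background 5.37%). There limma called CFD no longer (adjusted p = 0.193), C1R and C1S no longer (0.115 and 0.0638), and C7 in addition (0.0460). With neighboring 5 alone put back 5 rose, where 5.16% of all probe sets did, and without healthy 1 or healthy 5 6 rose, where 14.6% and 13.5% did. The study itself had named CFB, C6, C4BPA and CFI among its systemic defense genes on these samples, so their direction is not independent evidence.

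**Figure D1:**
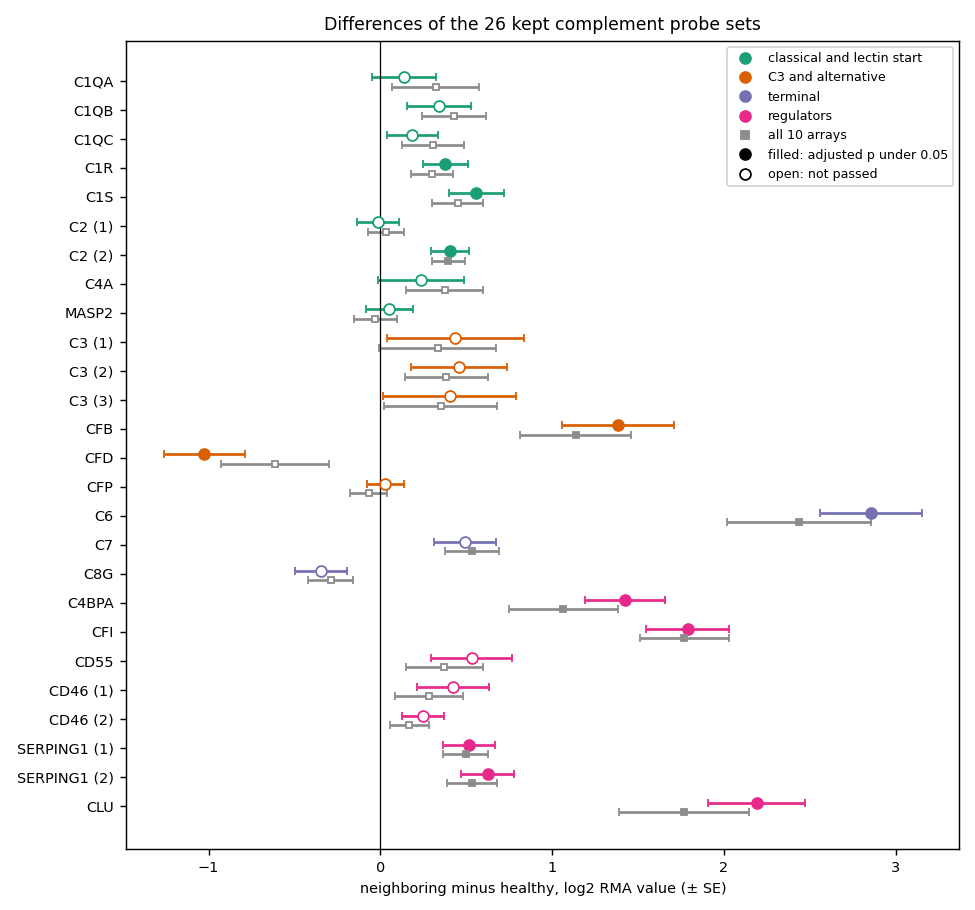
Difference between neighboring and healthy glands (x axis, log2 RMA value, bars are limma's SE) for the 26 complement probe sets that passed the filter, coloured by role; circles are the 8 arrays of the fit, grey squares all 10 arrays, and filled symbols had an adjusted p below 0.05. C6 lies farthest to the right at 2.85, followed by CLU at 2.19 and CFI at 1.79, and CFD lies at −1.03; numbers in brackets tell probe sets of one gene apart, in the order of their identifiers.

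The terminal components were measured by 9 probe sets of 7 genes, of which C6, C7 and C8G had a probe set over the filter. C6 binds C5b as the membrane attack complex begins to assemble. On the brighter of its 2 probe sets C6 read 7.70, 8.62, 8.10 and 8.77 in neighboring 1 to 4 and 6.18, 5.61, 5.03 and 4.96 in healthy 1, 2, 4 and 5. The groups did not overlap. The rise was 7.23-fold as measured (2.85 ± 0.29, SE, n = 4 per group, adjusted p = 0.000255), the seventh highest of all kept probe sets. The arrays outside the fit read 6.25 (neighboring 5) and 5.49 (healthy 3). The other probe set of C6 lay under the filter and gave 3.27 ± 0.27 in neighboring and 3.20 ± 0.13 in healthy glands (SD, n = 4), a difference of 0.07 ± 0.14 (SE), so the rise of C6 rests on a single probe set.

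C7, the next component to join the complex, read 8.06, 7.88, 7.84 and 8.62 in neighboring 1 to 4 and 7.83, 7.71, 7.61 and 7.29 in the healthy arrays. All 4 neighboring values lay above the healthy ones, but the difference of 0.49 ± 0.18 (SE) did not pass (adjusted p = 0.0634). Neighboring 5 read 8.29, above every healthy array, and healthy 3 read 7.58. C8G, the gamma chain of C8, lay at 6.74 ± 0.18 against 7.08 ± 0.28 (SD, n = 4), a difference of −0.35 ± 0.15 (SE, adjusted p = 0.106). The genes of C5, of the C8 alpha and beta chains and of the pore-forming C9 lay under the filter in each of their probe sets. Without a filter their differences ran from −0.19 for C9 to 0.04 for a probe set of C8B, and none passed. C6 was thus the one terminal component with a called rise.

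Among the soluble regulators, clusterin (CLU), a chaperone-like protein that keeps the attack complex off membranes, rose most. It read 11.47, 11.22, 12.50 and 12.63 in neighboring 1 to 4 and 9.81, 9.86, 9.79 and 9.60 in healthy 1, 2, 4 and 5. The healthy arrays were close together (9.76 ± 0.11, SD) and the neighboring ones spread widely (11.95 ± 0.71), with neighboring 3 and 4 the highest. The rise was 4.56-fold (2.19 ± 0.28, SE, adjusted p = 0.000662), and neighboring 5 read 10.23 and healthy 3 10.16.

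Factor I (CFI), the protease that cuts C3b and C4b, read 7.28, 6.44, 7.37 and 7.45 in neighboring 1 to 4 and 5.54, 5.18, 5.77 and 4.88 in the healthy arrays. Its rise was 3.45-fold (1.79 ± 0.24, SE, adjusted p = 0.000850). Neighboring 5 read 6.42, close to neighboring 2 and above every healthy array, and the difference on all 10 arrays was 1.77 ± 0.26 (SE). The alpha chain of C4b-binding protein (C4BPA), which acts as a cofactor of factor I, read 7.26, 6.46, 6.30 and 6.52 against 4.71, 5.16, 5.34 and 5.65. It rose 2.69-fold (1.43 ± 0.23, SE, adjusted p = 0.00199). Here neighboring 5 read 5.16, within the healthy range, and putting it back alone ended the call of C4BPA (1.13 ± 0.34, SE, adjusted p = 0.0599). The beta chain, C4BPB, lay under the filter, at 3.01 ± 0.08 and 3.14 ± 0.13 (SD, n = 4).

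C1 inhibitor (SERPING1), which inactivates C1r, C1s and the MASP proteases, rose in both of its probe sets. The brighter one read 9.81, 9.75, 9.21 and 9.62 against 8.84, 9.36, 9.02 and 9.10, so that neighboring 3 fell below healthy 2, and it rose 1.43-fold (0.52 ± 0.15, SE, adjusted p = 0.0285). Dropping a single array ended its call in 6 of 8 fits, the adjusted p reaching 0.0747 without healthy 1, as did quantile normalization (0.0647) and cyclic loess (0.0679). The other read 9.27, 8.69, 8.88 and 8.68 against 8.16, 8.57, 8.17 and 8.11 without overlap, rose 1.54-fold (adjusted p = 0.0136) and passed in all 8 of those fits. The membrane regulators did not pass. CD55, which takes C3 convertases apart, differed by 0.53 ± 0.24 (SE, adjusted p = 0.112), with healthy 2 above neighboring 2 and 4. CD46, a cofactor of factor I on cell surfaces, differed by 0.25 ± 0.12 and 0.42 ± 0.21 in its probe sets (adjusted p = 0.150 and 0.148).

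**Figure D2:**
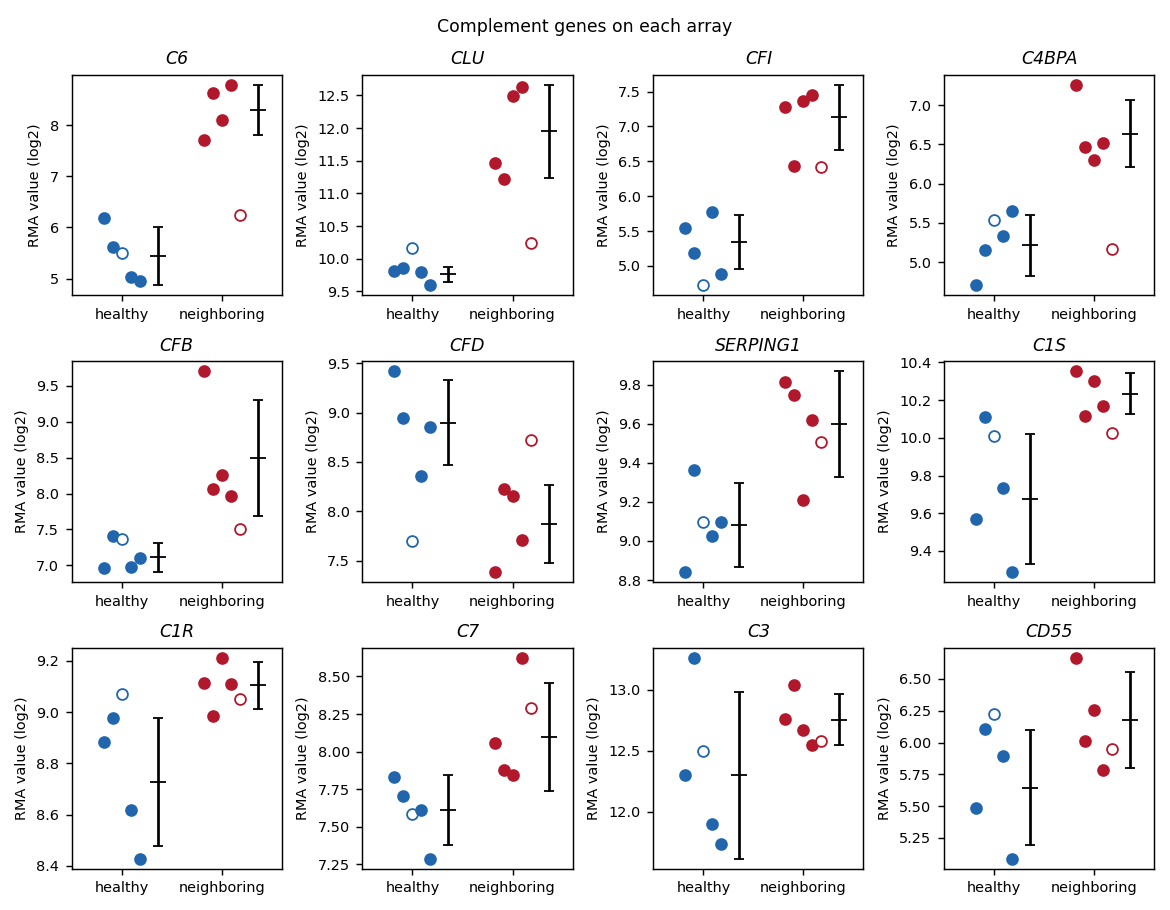
Log2 RMA values (y axis) of 12 complement genes on each array, by group (x axis), with the brightest probe set per gene; filled points are the 8 arrays of the fit, open points neighboring 5 and healthy 3, points run from replicate 1 to 5 within a group, and bars are mean ± SD over the 4 arrays of the fit. The neighboring and healthy arrays of the fit do not overlap for C6, CLU, CFI, C4BPA, CFB, CFD, C1S, C1R and C7, and overlap for SERPING1, C3 and CD55.

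Alternative route genes went in opposite directions. CFB, the factor that forms the protease of the alternative convertase, read 9.70, 8.07, 8.25 and 7.97 in neighboring 1 to 4 and 6.97, 7.41, 6.98 and 7.10 in the healthy arrays. Neighboring 1 stood above the other neighboring arrays, and the groups did not overlap. CFB rose 2.61-fold (1.38 ± 0.33, SE, adjusted p = 0.0109), and by 0.98 without neighboring 1 (adjusted p = 0.00139). CFD, the protease factor D that cleaves bound factor B and is also known as adipsin for its high level in fat cells, read 7.39, 8.23, 8.15 and 7.72 against 9.42, 8.95, 8.36 and 8.86. It fell by 1.03 ± 0.23 (SE, adjusted p = 0.00967) on the log2 scale, but healthy 3 read 7.70, as low as the neighboring arrays, and neighboring 5 read 8.73, within the healthy range. With healthy 3 alone put back the difference was −0.79 ± 0.31 (SE, adjusted p = 0.0765), and with neighboring 5 alone put back −0.85 ± 0.27 (adjusted p = 0.0636). Properdin (CFP), which stabilizes the convertase, lay at 7.33 ± 0.10 and 7.30 ± 0.16 (SD, n = 4; adjusted p = 0.855).

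Of 6 adipocyte genes, a list added after the values of CFD had been seen, FABP4 and LIPE passed the filter, ADIPOQ, LEP and CIDEC lay under it and PLIN1 had no probe set. The fatty acid-binding protein FABP4 fell by 1.10 ± 0.15 (SE, adjusted p = 0.000772) and the lipase LIPE differed by 0.28 ± 0.12 (adjusted p = 0.101). Their mean level was 9.34 to 9.60 on the neighboring arrays of the fit and 9.69 to 10.12 on the healthy ones, with 9.95 on neighboring 5 and 9.35 on healthy 3. This mean covers only FABP4 and LIPE, which differed in opposite directions. The part of fat cells in the fall of CFD was not tested.

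C3, on which all routes converge, was measured by 3 probe sets. The brightest read 12.76, 13.04, 12.67 and 12.55 in neighboring 1 to 4 and 12.30, 13.26, 11.90 and 11.73 in healthy 1, 2, 4 and 5. Healthy 2 was the highest of all 10 arrays in each of the 3 probe sets, and the other healthy arrays of the fit lay below every neighboring one in that probe set. The difference was 0.46 ± 0.28 (SE, adjusted p = 0.238), and 0.44 and 0.40 in the other probe sets. Without healthy 2 all 3 probe sets were called higher, by 0.78 to 0.90 (adjusted p between 0.0102 and 0.0206). In the brightest probe set the SD of C3 was 0.68 over the 4 healthy arrays of the fit and 0.21 over the 4 neighboring ones. Much of the healthy spread came from healthy 2, and the spreads were not compared by a test.

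In the classical route, the proteases C1S and C1R rose slightly and the recognition subunits did not pass, and no MASP probe set of the lectin route passed. C1S read 10.35, 10.12, 10.30 and 10.17 against 9.57, 10.11, 9.73 and 9.29. It rose 1.47-fold (0.56 ± 0.16, SE, adjusted p = 0.0239), with neighboring 2 barely above healthy 2. C1R read 9.11, 8.99, 9.21 and 9.11 against 8.88, 8.98, 8.62 and 8.43 and rose 1.30-fold (0.38 ± 0.13, SE, adjusted p = 0.0475). Both were close to the threshold: leaving out 1 array ended the call of C1R in 7 of 8 fits (adjusted p up to 0.117, without neighboring 3) and that of C1S in 4 of 8 (up to 0.0610, also without neighboring 3). The call of C1R was also lost after quantile normalization (0.0744) and cyclic loess (0.0839). Healthy 3 read 9.07 for C1R, above the healthy arrays of the fit and among the neighboring ones, and 10.01 for C1S, below healthy 2.

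The chains of C1q did not pass, with 0.14 ± 0.19 for C1QA, 0.34 ± 0.19 for C1QB and 0.19 ± 0.15 for C1QC (SE, adjusted p = 0.599, 0.191 and 0.361). They followed each other over the arrays: neighboring 1 was the lowest of the neighboring arrays of the fit and healthy 4 the lowest of the healthy ones for each chain. C1QA, for example, read 9.03, 9.89, 9.58 and 9.30 against 9.48, 9.32, 8.95 and 9.50. C4A, the source of C4b, read 9.52, 8.78, 8.47 and 8.42 against 8.49, 8.96, 8.71 and 8.08 (adjusted p = 0.487), and its difference was 0.00 without neighboring 1. For C4A neighboring 5 read 9.19, above every healthy array, and healthy 3 read 8.28.

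C2, which C1s cleaves, gave different answers in its 2 probe sets. The dimmer one rose 1.32-fold, from 5.91 ± 0.13 to 6.32 ± 0.15 (SD, n = 4; adjusted p = 0.0201), without overlap, and neighboring 5 at 6.37 lay above every healthy array. The brighter one lay at 6.90 ± 0.16 and 6.91 ± 0.18 (adjusted p = 0.936). Of the lectin route proteases, MASP2 had 1 of 4 probe sets over the filter, with a difference of 0.05 ± 0.14 (SE, adjusted p = 0.801), and both probe sets of MASP1 lay under it. Without a filter the 12 member probe sets under it differed by −0.31 to 0.07, and limma called none of them (adjusted p from 0.0934 to 0.924, with 1 at an unadjusted p under 0.05, a probe set of MASP2).

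By role, without a filter and so over every member probe set, 5 of 9 regulator probe sets rose (CLU, CFI, C4BPA and both of SERPING1), with a median difference of 0.53. Of 9 terminal probe sets 1 rose (median 0.03), of 14 classical and lectin probe sets 2 (median 0.10) and of 6 C3 and alternative route probe sets 1 rose and 1 fell (median 0.42, of which 3 are C3). All probe sets had a median of −0.04, and 11.1% of them rose. The roles were not tested against each other, and several probe sets share a gene.

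Related genes were set against each other within each array. Of 5 such comparisons, chosen with the rises of C6, CFB and C4BPA known, 4 join genes that lie next to each other or 1 gene apart on the cattle genome (assembly ARS-UCD2.0). C6 minus C7 was −0.35 to 0.74 on the neighboring arrays of the fit and −2.59 to −1.66 on the healthy ones, a shift of 2.36 ± 0.30 (SE). CFB minus C2 shifted by 1.40 ± 0.43, from 0.02 to 0.35 up to 0.94 to 2.84. It was taken with the brighter C2 probe set, which differed by −0.02 ± 0.12 (SE). The dimmer C2 probe set rose by 0.41 ± 0.11 (SE), so the shift of this pair would be smaller with it. C4BPA minus C4BPB shifted by 1.56 ± 0.29, but C4BPB lay under the filter, among the dimmest probe sets of the array, so this shift mostly repeats the difference of 1.43 of C4BPA itself. In each of these 3 the arrays of the groups did not overlap. They are given as a description with no test, since the rises of C6, CFB and C4BPA prompted them.

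C1R minus C1S shifted by −0.18 ± 0.11 and CD55 minus CD46 by 0.29 ± 0.22 (SE), and both overlapped between groups. On neighboring 5 C6 minus C7 and C4BPA minus C4BPB lay within the healthy arrays of the fit, and CFB minus C2 lay above them but below healthy 3.

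**Figure D3:**
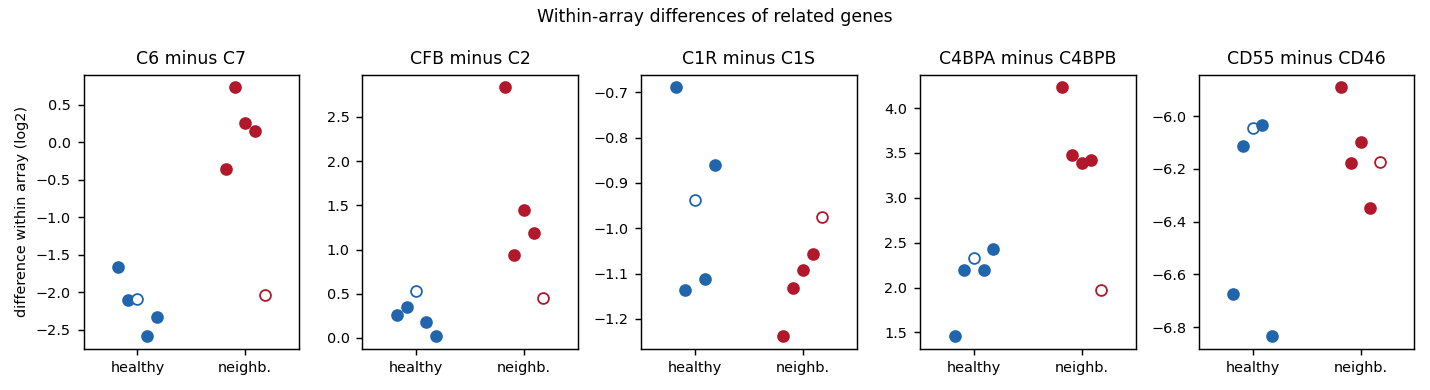
Difference of the log2 RMA values of 2 complement genes within each array (y axis) in healthy and neighboring glands (x axis), for the 5 pairs compared, with the brightest probe set per gene; filled points are the 8 arrays of the fit and open points neighboring 5 and healthy 3. The filled points of the groups are apart for C6 minus C7, CFB minus C2 and C4BPA minus C4BPB and overlap for C1R minus C1S and CD55 minus CD46.

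The neighboring cows did not share 1 order over the members. Neighboring 1 was the highest of the 4 for CFB, C4BPA, C4A, CD55, both probe sets of CD46, both of SERPING1 and C1S. Neighboring 4 was the highest for C6, C7, CFI and CLU, in which neighboring 1 or 2 or, for C7, neighboring 3 was the lowest. Neighboring 2 was the highest for all 3 probe sets of C3. CFB ranged over 1.73 among the 4 neighboring arrays and 0.44 among the 4 healthy ones, and CLU over 1.41 and 0.26. For C6 these ranges were alike, 1.07 and 1.21.

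**Figure D4:**
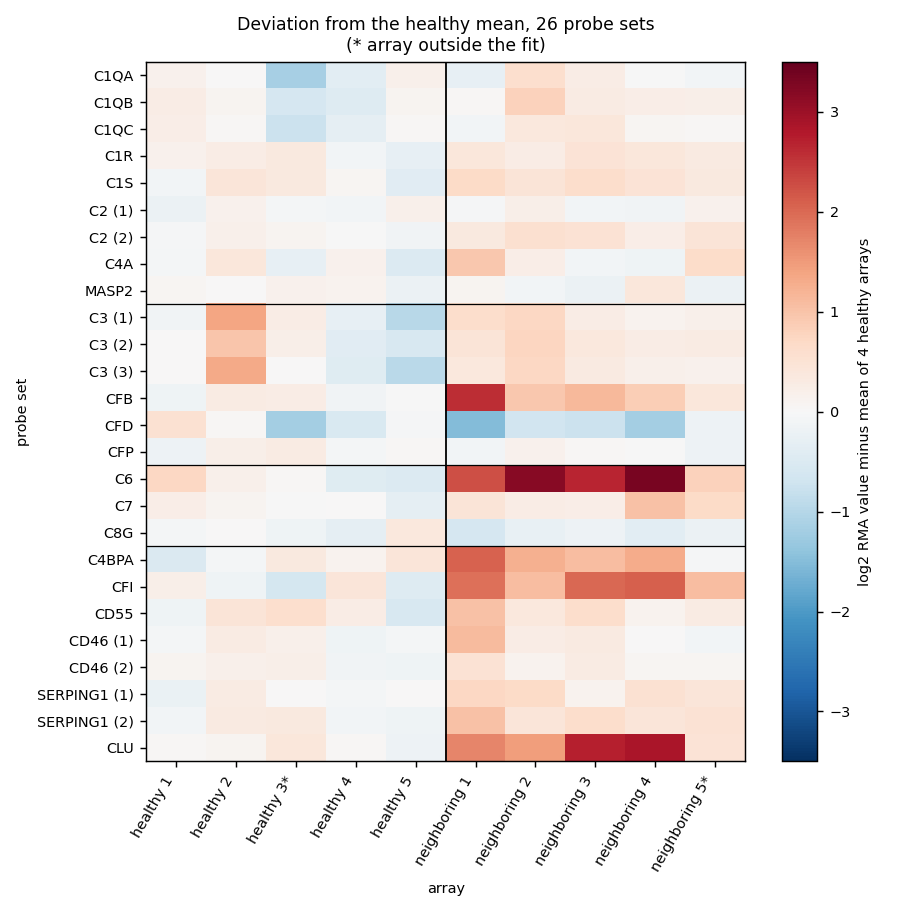
Deviation of each array from the mean of the 4 healthy arrays of the fit (colour, log2 RMA value) for the 26 complement probe sets that passed the filter (rows, separated by role) on all 10 arrays (columns; a star marks arrays outside the fit). C6, CFI and CLU are high on neighboring 1 to 4, CFB is highest on neighboring 1, C3 is high on healthy 2, and the C1q chains and CFD are low on healthy 3.

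Neighboring 5, which did not enter the fit, lay above every healthy array in 7 of the 10 risen probe sets, as it did in 541 (21.2%) of the 2548 risen probe sets of the whole array. It stood 1.08 above the healthy mean of the fit for CFI, 0.81 for C6, 0.47 for CLU and 0.39 for CFB, and at −0.05 for C4BPA. For both probe sets of SERPING1 it lay 0.43 and 0.51 above, close to the differences of 0.52 and 0.62 in the fit.

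Complement genes outside the list were read as well. Of 35 such symbols, 16 had a probe set and 9 passed the filter. Of these 9, 1 rose and 2 fell, where 17.7% and 12% of all kept probe sets did. C5AR2, a receptor of C5a, rose 2.47-fold (1.30 ± 0.18, SE, adjusted p = 0.000884), from 6.37 to 7.68, but read 6.33 on neighboring 5. The collectin COLEC12 fell by 1.00 ± 0.21 (adjusted p = 0.00625). CR2, the receptor of C3 fragments on B cells, fell by 0.32 ± 0.10 (adjusted p = 0.0367). Neighboring 5 read 7.56 and 6.26 for COLEC12 and CR2, against healthy means of 7.61 and 6.01. The neighboring mean of CR2, 5.69, lay under the filter limit of 5.71, so its passing the filter was not independent of the groups. The remaining 6 (C1QBP, CD93, FCN1, ITGB2, PROS1 and VSIG4) did not pass. Among those under the filter were the mannose-binding lectins MBL1 and MBL2 and ITGAM, a chain of complement receptor 3.

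Markers of cells that make or carry complement were counted beside these results. Among all kept probe sets 17.7% rose and 12% fell, and the counts of markers were not tested against these shares. None of the 4 measured hepatocyte genes rose (0 of 4, and 0 fell), and their mean level was 7.37 to 7.91 on the neighboring and 7.72 to 8.49 on the healthy arrays of the fit, with ALB at 9.33 and 9.48. Of 5 macrophage genes 0 rose and CD14 and AIF1 fell (means 8.31 to 8.83 against 8.84 to 8.94), beside C1q chains that did not pass. Of 7 fibroblast genes PDGFRA rose and COL1A1, COL3A1 and LUM fell (8.39 to 9.05 against 9.19 to 9.55), beside C1R, C1S and SERPING1, which rose. Of 7 luminal epithelial genes KRT19 and EPCAM rose (12.44 to 12.71 against 12.11 to 12.28).

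Of 4 neutrophil genes S100A8 and S100A12 rose (8.61 to 9.26 against 7.32 to 7.87), while MPO, ELANE and FCGR3A lay under the filter. The healthy means of S100A8 and S100A12, 5.59 and 5.54, lay under the filter limit of 5.71. Their passing the filter was thus not independent of the groups. On the brightest probe set of each, S100A9 and LTF were not called, with differences of 0.17 ± 0.10 and 0.14 ± 0.30 (SE). The study lists S100A9 among genes changed in both infected and neighboring glands. Any other probe set of S100A9 is not given here. Neighboring 5 read 9.03 for that list, among the neighboring arrays of the fit. Of 4 T cell genes 3 fell (6.19 to 6.73 against 6.68 to 7.05). On neighboring 5, however, the T cell list read 7.20, above every healthy array (healthy 3 at 6.86). The 3 endothelial genes (7.95 to 8.35 against 8.05 to 8.44) and JCHAIN of plasma cells (8.56 to 9.57 against 8.88 to 10.15) did not pass. JCHAIN read 10.81 on neighboring 5, above every healthy array (healthy 3 at 10.52). The part of cell composition in the complement differences was not tested.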

How the data were processed

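The deposited table holds log2 values, 1 per probe set and array, which the authors obtained by RMA (background correction, quantile normalization, summary of the probes of a set) from Affymetrix GeneChip Bovine Genome Arrays hybridized with RNA extracted by TRIzol and labelled with MessageAmp II. The software version was not given in the sources used here. Groups and replicate numbers came from the titles of the labels, where another label field of the healthy samples repeats the neighboring text. Quantile normalization hides a change shared by most transcripts.

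Control probe sets (112) were left out. Genes were named from the platform annotation. The filter stands in for present calls, which need probe-level signals not used here. limma 3.58.1 in R 4.3.3 was run with lmFit and eBayes and Benjamini-Hochberg adjustment, and every adjusted p in the text is limma's. SD was taken over the 4 arrays of a group, and SE is the moderated one of limma; for comparisons of 2 genes it is the SE of the difference of means. The arrays limit the precision by their number, 4 per group. All members are named, and other complement genes where called; where probe sets share a gene the brightest leads. Members, lists and gene pairs were chosen with earlier results of these data known, so the exact permutation test run on the gene pairs is not reported. Same-numbered arrays came from different cows, and their deviations correlated at −0.03, −0.03 and −0.05, so no pairing was used. Alternatives covered arrays, filter, scaling, variance model, covariate, block and threshold.

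On simulated data of 4 against 4 arrays with 14409 probe sets, 200 of them changed, 89% of 2-fold and 99% of 4-fold changes were called, with 8 unchanged probe sets called. The noise was normal and independent between probe sets and arrays, with the within-group SD of the 8 arrays of the fit. Deviations shared by probe sets of a cow and arrays of unequal quality were not simulated, so these shares may not hold for the real arrays.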

Additional observations from a re-analysis of the deposited data

Results flagged for a closer look

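Among 76 groups of 5 arrays (each member probe set in each group), 1 held an array far from the others by Dixon's test, where chance gives about 1 in 20: a dim probe set of MASP2, at 5.71 on neighboring 4 with the next at 5.45.

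Neighboring 5 did not enter the fit and yet lay beyond every healthy array, in the direction of the fit, for 7 called probe sets. It read 10.23 for CLU (highest healthy array 10.16), 6.42 for CFI (5.77), 7.51 for CFB (7.41), 6.25 for C6 (6.18), and 6.37 for the C2 probe set that rose (6.09). For SERPING1 it read 9.51 and 8.76 (9.36 and 8.60).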

How the results depend on the processing

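C6 passed in each alternative run. CLU, CFI, C4BPA, CFB, CFD and the SERPING1 probe set without overlap passed in all 8 fits that left out 1 array of 1 group. Of the member probe sets, 10 were higher, where 17.7% of all probe sets were. The count was 4 at the stricter threshold (all probe sets 1.71%), 5 with neighboring 5 alone put back (all probe sets 5.16%, 6 of the 11 calls lost, among them CFB with adjusted p = 0.0567 and C4BPA with 0.0599), 1 with the hybridization controls as a covariate (all probe sets 1.05%), and 6 to 13 with 1 array left out, 6 without healthy 1 or healthy 5 (14.6% and 13.5%) and 13 without healthy 2 (14.4%). The count of lower members was 0 on all 10 arrays (all probe sets 5.37%), with healthy 3 (12.5%) or neighboring 5 (3.1%) put back, and with the covariate (0.687%). It was 1 in each fit with 1 array left out (8.34% to 11.8%). With the replicate number as a block 5 members were higher and 0 lower (all probe sets 5.9% and 4.38%), though same-numbered arrays did not deviate together and no array correlated best with its own number. In the fits that changed these counts the cause was not tested. The differences of all kept probe sets shifted by a median of −0.003 after median scaling, −0.05 after cyclic loess and −0.06 after quantile normalization. Their median in the main fit was 0.03. After quantile normalization and after cyclic loess 8 members were higher (all probe sets 14.6% and 15.2%), C1R and the brighter SERPING1 probe set being lost. Of all probe sets 14.7% and 13.8% were then lower, against 12% in the main fit.

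Of the cell type markers 5 were higher and 8 lower, where 17.7% and 12% of all probe sets were. The higher count was 3 at the stricter threshold (all probe sets 1.71%) and with neighboring 5 put back (5.16%). It was 2 with the covariate (1.05%) and 4 to 6 with 1 array left out (12.5% to 17.7%). The lower count was 1 at the stricter threshold (all probe sets 1.05%), 5 on all 10 arrays (5.37%) and 2 with the covariate (0.687%). It was 3 with neighboring 5 put back (3.1%), 4 with the replicate block (4.38%) and 6 to 10 with 1 array left out (8.34% to 11.8%). Of the other complement genes, 0 were higher and 0 lower with the covariate (all probe sets 1.05% and 0.687%) or with neighboring 5 put back (5.16% and 3.1%). Of these genes 1 was lower at the stricter threshold (1.05%), on all 10 arrays without array weights (5.37%) and with them (13.3%). The same count came after cyclic loess (13.8%), after quantile normalization (14.7%) and with the replicate block (4.38%). With 1 array left out, 1 to 2 were higher (12.5% to 17.7%) and 1 to 2 lower (8.34% to 11.8%).

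With neighboring 5 put back the gene comparisons, which are a description with no test, were 1.92 for C6 minus C7, 1.17 for CFB minus C2 and 1.23 for C4BPA minus C4BPB, which was 1.18 on all 10 arrays. With 1 array left out they ran from 2.18 to 2.55, 0.99 to 1.62 and 1.35 to 1.68. C1R minus C1S ran from −0.24 to −0.09 and CD55 minus CD46 from 0.15 to 0.41.

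Differences that changed sign were of probe sets that did not pass. The brighter C2 probe set gave 0.032 on all 10 arrays, 0.042 with array weights, 0.000285 with healthy 3 put back, 0.017 with neighboring 5, 0.059 with the covariate and 0.070 with the replicate block. CFP gave −0.068 on all 10 arrays, −0.029 and −0.010 with healthy 3 or neighboring 5 put back, −0.018 after cyclic loess and −0.020 after quantile normalization. MASP2 gave −0.029 on all 10 arrays and −0.017 with array weights. With the covariate C4A gave −0.20 and CD55 −0.14. With 1 array left out C1QA ran from −0.011 to 0.28, the brighter C2 from −0.093 to 0.040, C4A from −0.00119 to 0.37, CFP from −0.028 to 0.10 and MASP2 from −0.064 to 0.14. Detection calls were not used, so how far dim probe sets lay above background was not tested.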

Other observations

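Healthy 3, which did not enter the fit, read 8.14 for C1QA, 7.60 for C1QB and 7.03 for C1QC, the lowest of all 10 arrays for each chain and deviations of −1.17, −0.58 and −0.75 from the mean of the 4 healthy arrays of the fit. It read 4.73 for CFI, also the lowest of the 10.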
